A study of Mus musculus with 12 samples.

Results

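The measurement described here is how far the response of intestinal mesenchymal cells to lipopolysaccharide (LPS) differed between MyD88 knockout and wild-type cells. For each gene it is the change with LPS in MyD88 knockout (MyD88ko) minus the change with LPS in wild type (wt), taken on log2(normalized value + 1) and again as a difference in mean normalized value. The tables of both LPS comparisons were joined by gene identifier. Of 14813 genes listed in either table, 13734 had values in all 12 libraries, and the 12344 with a mean of at least 10 in 1 or more groups were tested. A negative log2 difference means that the proportional change was more negative, or less positive, in MyD88ko. Fold changes on this scale understate the change of genes with low values.

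The cells were primary mesenchymal cells, the connective-tissue cells beneath the gut epithelium, from the small intestine of C57/Bl6 mice. They were cultured to passage 3 and sorted for GFP. Per the labels, MyD88ko cells carried ColVIcre-MyD88F/F-RosamTmG, in which Cre recombinase is driven by ColVIcre in mesenchymal cells, and wt cells carried MyD88F/F-RosamTmG. By these labels the loxP-flanked MyD88 allele and the RosamTmG reporter were common to all groups. The reporter is known to switch to GFP once Cre has acted, so a wt label without Cre conflicts with sorting for GFP. The series' design text instead calls the wt cells ColVIcre-positive. Cre with the loxP-flanked allele would delete Myd88, which was expressed in wt, so the wt genotype remains unclear. Should the genotype label hold, effects of Cre and of the deletion cannot be told apart. After a night without serum, cells were left untreated or given E. coli LPS at 2 µg/ml for 6 h. Each of the 4 groups (wt untreated, wt LPS, MyD88ko untreated, MyD88ko LPS) had 3 libraries of the 3′ ends of mRNA. The labels do not say that replicates came from separate animals, so p-values measure the spread between these libraries, which may be technical. The untreated libraries carry an earlier series of library codes than the LPS libraries in both genotypes, so the series of libraries and LPS treatment cannot be told apart.

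LPS is sensed by TLR4 with its partners MD-2 and CD14. The receptor signals through the adaptor MyD88, which leads to rapid NF-κB and MAP kinase activation, and through the adaptor TRIF, which leads to IRF3, type I interferon and a later wave of NF-κB activity. In gut mesenchymal cells these arms are known to drive chemokines that recruit neutrophils and monocytes.

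Myd88, the targeted gene, had values of 99, 98 and 103 in untreated wt and 171, 204 and 213 in LPS-treated wt, against 14, 8 and 10 in untreated MyD88ko and 24, 22 and 5 in LPS-treated MyD88ko. Every MyD88ko library was below every wt library. A 3′ tag can lie outside a deleted exon, and the labels do not give the deleted part. About 2.5 to 5.3 megareads were estimated per library from the rounding of the low values. Summed levels of 12 mesenchymal markers, all 12 of them present, were 51474 to 103036 in untreated wt, 75930 to 119336 in LPS-treated wt, 92691 to 113231 in untreated MyD88ko and 136246 to 144156 in LPS-treated MyD88ko. Within wt untreated, replicates 1 and 3 stood apart at 56178 and 51474, against 103036 in replicate 2. Col1a1 alone made up 27011, 52324 and 19270 of the sums of wt untreated replicates 1, 2 and 3. Within wt LPS, replicates 1 and 3 were also lower, at 75930 and 82774, against 119336 in replicate 2. The 5 epithelial markers with values, of 18 listed, summed to 1132, 34 and 401 in the wt untreated replicates and to 10 to 72 elsewhere. Gata3 made up 957, 23 and 258 of the wt untreated sums, while Epcam, Cdh1, Krt8 and Krt18 were not among the joined genes. The 7 leukocyte markers with values, of 15, summed to 30 to 73 in every library. Of 11 endothelial markers only Egfl7 had values (47 to 160). The 6 glial and neuronal markers with values summed to 424 to 1014 in untreated and 1012 to 3020 in LPS libraries, and the 7 hepatocyte markers with values to 197 to 403 and 20 to 161. The list counts below are therefore also given without wt untreated replicates 1 and 3, where 7.45% of all genes had an unadjusted p under 0.05; what set these libraries apart was not tested. Leaving out wt untreated replicates 1 and 3 leaves replicate 2 as the only wt untreated library and keeps all wt LPS libraries. Counts, calls and medians in that setting therefore rest on an untreated wt group without replicates. In bulk libraries, fewer cells of a type and less RNA per cell cannot be told apart.

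The stretches around the transcription start of 6 genes are shown because the genotype difference was called for the first pair, and because the other 4 are LPS target genes whose scales are compared below. They come from RefSeq on GRCm38.p6, run from 250 bases before to 50 bases after the start, and read 5′ to 3′ on the gene's strand. Capitals mark matches to the κB consensus, the site of NF-κB, and to the interferon-response core (GAAA, any 2 bases, GAAA), searched on both strands. Such a window was found for 85 of 114 named genes, and those shown lie at chr11:3514434-3514733 (Selenom, plus strand), chr9:104126594-104126893 (Ackr4, minus), chr12:55492598-55492897 (Nfkbia, minus), chr5:30012864-30013163 (Il6, plus), chr5:90890995-90891294 (Cxcl1, plus) and chr5:92348840-92349139 (Cxcl10, minus).
Selenom: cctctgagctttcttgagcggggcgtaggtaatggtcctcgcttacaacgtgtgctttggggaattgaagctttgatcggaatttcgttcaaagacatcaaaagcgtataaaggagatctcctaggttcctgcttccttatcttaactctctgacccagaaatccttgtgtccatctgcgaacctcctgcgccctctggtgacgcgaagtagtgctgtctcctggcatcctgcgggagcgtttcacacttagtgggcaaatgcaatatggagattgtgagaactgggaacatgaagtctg
Ackr4: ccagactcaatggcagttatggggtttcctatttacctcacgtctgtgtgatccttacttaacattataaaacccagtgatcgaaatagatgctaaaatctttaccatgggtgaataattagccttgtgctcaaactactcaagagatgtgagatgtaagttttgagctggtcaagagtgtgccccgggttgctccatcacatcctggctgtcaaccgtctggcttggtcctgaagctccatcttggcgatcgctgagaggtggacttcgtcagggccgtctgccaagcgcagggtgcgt
Nfkbia: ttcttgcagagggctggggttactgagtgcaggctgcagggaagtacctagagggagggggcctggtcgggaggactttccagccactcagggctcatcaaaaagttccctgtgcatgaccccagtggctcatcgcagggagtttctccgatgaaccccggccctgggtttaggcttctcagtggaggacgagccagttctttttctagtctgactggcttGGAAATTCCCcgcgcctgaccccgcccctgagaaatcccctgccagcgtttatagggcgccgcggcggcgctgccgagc
Il6: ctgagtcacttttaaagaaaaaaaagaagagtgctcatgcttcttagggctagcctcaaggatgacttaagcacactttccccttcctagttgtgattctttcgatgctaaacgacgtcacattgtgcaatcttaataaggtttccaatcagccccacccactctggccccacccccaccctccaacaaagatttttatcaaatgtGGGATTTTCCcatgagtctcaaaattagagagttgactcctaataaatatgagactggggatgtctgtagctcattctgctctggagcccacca
Cxcl1: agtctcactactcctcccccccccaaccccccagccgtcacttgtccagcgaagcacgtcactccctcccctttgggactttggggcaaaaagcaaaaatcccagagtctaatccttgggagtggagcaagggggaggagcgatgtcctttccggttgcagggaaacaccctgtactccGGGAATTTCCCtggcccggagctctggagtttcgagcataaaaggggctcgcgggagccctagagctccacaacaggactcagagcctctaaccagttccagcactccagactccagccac
Cxcl10: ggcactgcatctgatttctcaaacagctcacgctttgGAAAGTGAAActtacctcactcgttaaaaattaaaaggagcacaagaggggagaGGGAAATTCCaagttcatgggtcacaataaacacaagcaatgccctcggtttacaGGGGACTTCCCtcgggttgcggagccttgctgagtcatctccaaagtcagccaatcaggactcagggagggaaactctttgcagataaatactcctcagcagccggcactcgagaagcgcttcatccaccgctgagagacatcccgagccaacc
The windows of Selenom and Ackr4 held 0 matches to either motif. Nfkbia and Il6 each held 1 κB match. Cxcl1 held 2 overlapping κB matches, and Cxcl10 held 3, of which a pair overlaps, with 1 interferon-response core. A κB match was present in 8.46% and an interferon-response core in 3.44% of 32851 windows of this kind. A match is a description of letters and not of binding.

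Across all genes, few single-gene differences in the LPS response passed the test, although each genotype responded. In wt, LPS changed 2373 of 12344 genes (19.2%), of which 1182 rose (9.58%) and 1191 fell (9.65%). In MyD88ko it changed 741 (6.00%), of which 320 rose (2.59%) and 421 fell (3.41%). The MyD88ko count was 435, 337 and 382 without MyD88ko untreated replicates 1, 2 and 3, and 443 in limma without trend; leaving out wt LPS replicate 1 gave a wt count of 1566, and leaving out the untreated wt replicates 1 and 3 gave 970. The genotype difference itself was called for 2 genes (0.0162%) by limma with Benjamini-Hochberg adjustment at 0.05, namely Selenom (lower in MyD88ko, 0.00810% of genes) and Ackr4 (higher, 0.00810%). At an unadjusted p under 0.05 there were 1128 genes (9.14%), 588 of them lower (4.76%) and 540 higher (4.37%). The unequal numbers called in each genotype are therefore not by themselves a difference between genotypes. The 95% interval of a gene's log2 difference reached 0.95 to either side at the median, which is 1.94-fold. The half-width was 2.26 for the 339 genes whose highest group mean was from 10 to under 12, 2.37 for the 371 untested genes from 8 to under 10, and 0.65 for the 931 genes at 1000 or more. The changes in the genotypes, which share no library, had a Pearson r of 0.56 and a Spearman rho of 0.54 across genes, which are not independent replicates.

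**Figure D1:**
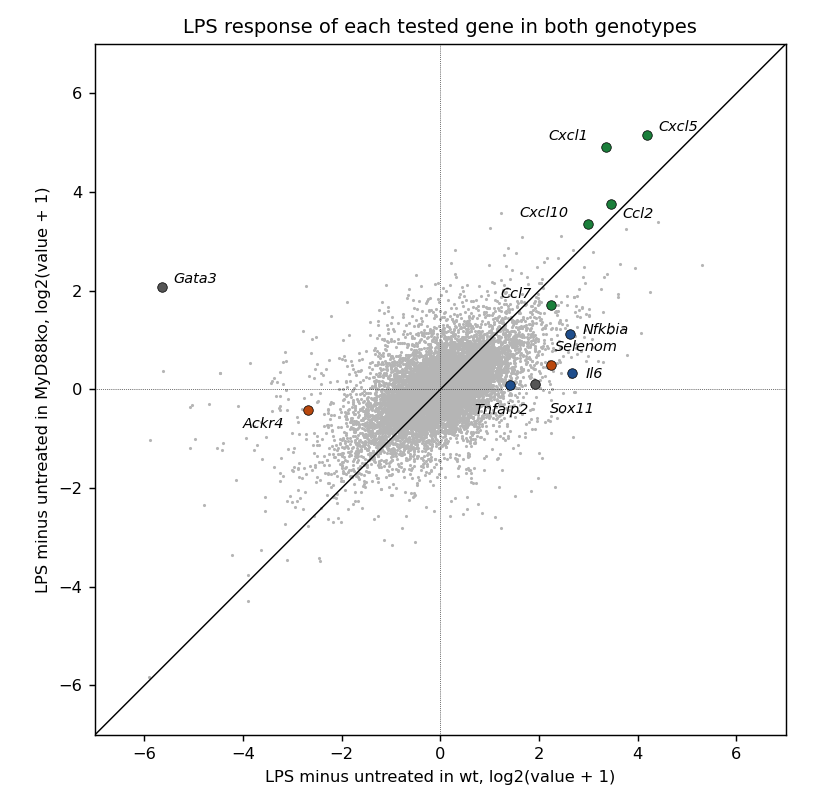
The log2 change with LPS in wt (horizontal) against MyD88ko (vertical) is plotted for each tested gene as a grey point, with the line of equal change. Named genes are marked: the called Selenom and Ackr4 in orange, chemokines in green, Nfkbia, Tnfaip2 and Il6 in blue, and the genes named after their values were seen (Sox11, Gata3) in dark grey. Cxcl1, Cxcl5, Ccl2 and Cxcl10 lie near or above the line, whereas Selenom, Nfkbia and Il6 lie below it.

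Selenom, which encodes the selenoprotein M of the endoplasmic reticulum (chr11:3514684-3517351), rose with LPS in wt, and its smaller change in MyD88ko did not pass the test. Its normalized values were 298, 280 and 305 in untreated wt, 1581, 1248 and 1405 in LPS-treated wt, 674, 774 and 841 in untreated MyD88ko, and 976, 1389 and 904 in LPS-treated MyD88ko. The wt untreated libraries were the lowest of all 12, and the LPS groups of both genotypes overlapped. Within MyD88ko, every LPS library lay above every untreated library. The log2 change was 2.25 in wt (4.76-fold, limma adjusted p = 8.75e-07) and 0.49 in MyD88ko (1.41-fold, adjusted p = 0.159). The difference was -1.76 ± 0.28 (SE; 95% interval -2.35 to -1.16; adjusted p = 0.0471). On the level scale the mean rose by 1117 in wt against 327 higher in MyD88ko, a difference of -790 ± 186 (SE, no test). The untreated mean was 469 higher in MyD88ko than in wt, and the LPS mean 322 below it (-322).

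Ackr4, an atypical receptor that scavenges chemokines (chr9:104084157-104126933), fell with LPS in wt. Its values were 698, 1441 and 950 in untreated wt, 117, 153 and 196 in LPS-treated wt, 743, 932 and 1003 in untreated MyD88ko, and 523, 890 and 629 in LPS-treated MyD88ko. The 3 wt LPS libraries were below all others, and the remaining groups overlapped. The log2 change was -2.69 in wt (adjusted p = 2.32e-06) and -0.41 in MyD88ko (adjusted p = 0.397), with a difference of 2.27 ± 0.38 (95% interval 1.48 to 3.06; adjusted p = 0.0471). The mean level changed by -874 in wt and -212 in MyD88ko, a difference of 662 ± 257. Both calls sit just inside the threshold. Selenom was called in 9 and Ackr4 in 11 of 23 alternative analyses, with adjusted p from 0.0156 to 0.291 and from 0.0163 to 0.291. The log2 differences over these alternatives ran from -1.95 to -1.63 for Selenom and from 2.0 to 2.82 for Ackr4. Of the 12 analyses that left out a library, Selenom was called in 3 (without MyD88ko LPS 2, wt untreated 2 or wt untreated 3) and Ackr4 in 4 (without wt LPS 3 or any 1 wt untreated library); every other omission ended the call.

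**Figure D2:**
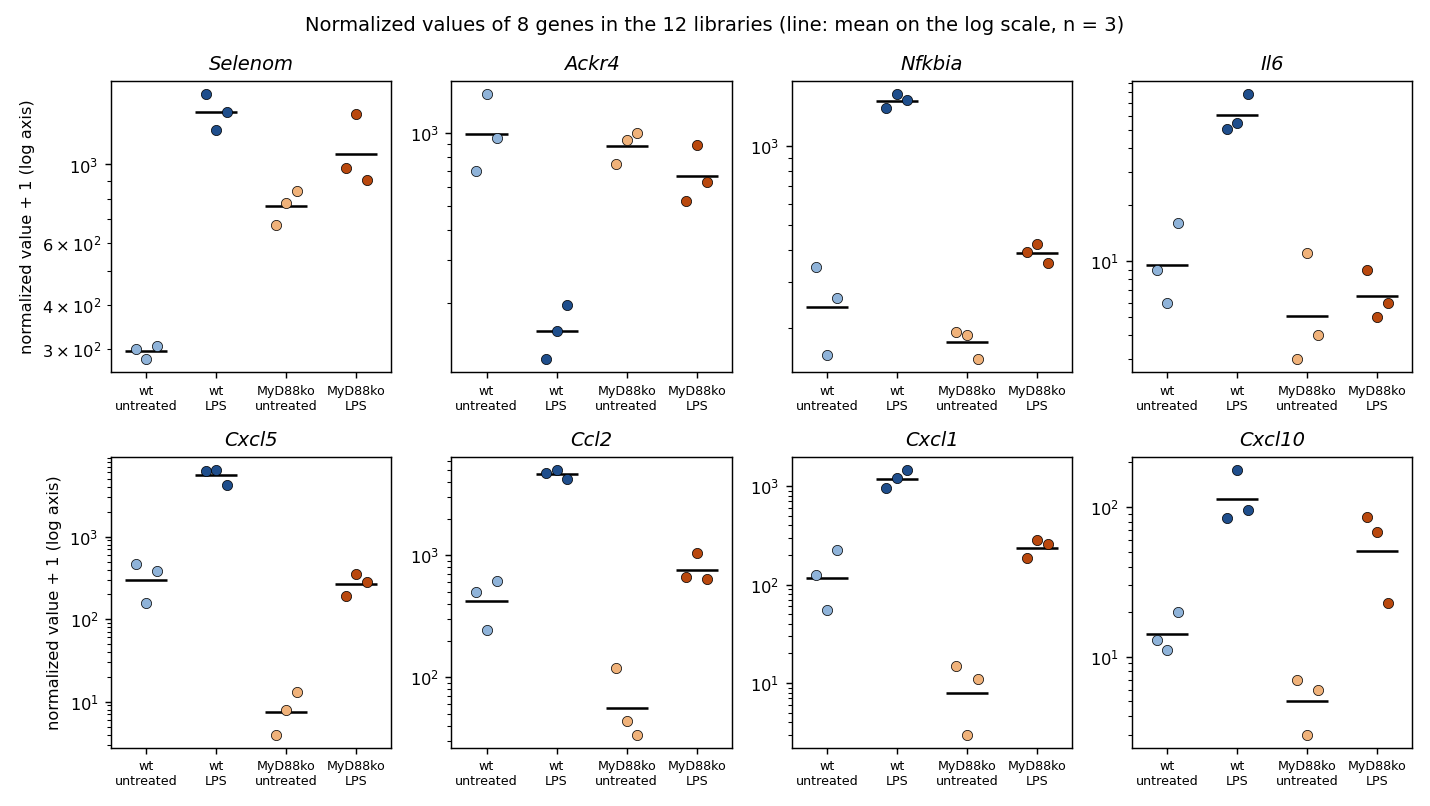
Normalized values plus 1 of 8 genes are shown on a log axis in each of the 12 libraries, coloured by group, with a line at the mean on the log scale (n = 3 per group). Selenom is lowest in wt untreated, Ackr4 is lowest in wt LPS, Nfkbia is highest in wt LPS, and Cxcl5, Ccl2 and Cxcl1 climb in both genotypes, from a lower start in MyD88ko.

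Sox11, a transcription factor of progenitor cells named after its values were seen, was the next gene by p. Its values were 230, 299 and 276 in untreated wt, 1189, 1132 and 771 in LPS-treated wt, 542, 522 and 736 in untreated MyD88ko, and 649, 758 and 531 in LPS-treated MyD88ko. Its wt LPS values lay above all others, while both MyD88ko groups overlapped. The log2 difference was -1.81 ± 0.32 with an adjusted p of 0.0561, and the levels changed by 762 in wt and 46.0 in MyD88ko. Other genes close to the threshold, also named after their values were seen, were Scand1 (log2 difference -1.91, adjusted p = 0.137) and Palm, which encodes a membrane-linked phosphoprotein (-1.65, adjusted p = 0.148), both of which rose in wt. Sbds, a ribosome maturation factor (1.41, adjusted p = 0.148), Xrcc5, the DNA repair protein Ku80 (1.67, adjusted p = 0.148), and Atp6v1a, a proton pump subunit (1.31, adjusted p = 0.157), fell in wt.

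Among subunits and feedback genes of NF-κB, none passed the adjusted test for the genotype difference with all 12 libraries. Of 17 tested members of the NF-κB list, 8 rose and 1 fell in wt and 3 rose in MyD88ko; over all genes 9.58% rose in wt and 2.59% in MyD88ko. The log2 difference was below 0 in 12 of 17 (50.3% of all genes), with a median of -0.23 against 0.00 over all genes. At an unadjusted p under 0.05 there were 3 (17.6%, against 9.14% of all genes). Leaving out 1 library moved this median between -0.61 (without MyD88ko LPS replicate 3) and -0.10 (without wt LPS replicate 2), with 9 to 13 below 0; without wt untreated replicates 1 and 3 it was -0.39 with 12 below 0 and 4 (23.5%) at an unadjusted p under 0.05. Nfkbia encodes IκBα, the inhibitor that NF-κB itself induces. Its values were 343, 157 and 261 in untreated wt, 1394, 1578 and 1498 in LPS-treated wt, 192, 188 and 152 in untreated MyD88ko, and 393, 420 and 355 in LPS-treated MyD88ko. It rose in both genotypes without overlap, 6.14-fold in wt (adjusted p = 1.1e-06) and 2.20-fold in MyD88ko (adjusted p = 0.00717). The difference was -1.48 ± 0.34 (95% interval -2.19 to -0.78; adjusted p = 0.209), and the means rose by 1236 against 212, a level difference of -1024 ± 79.1. Without wt untreated replicates 1 and 3, its log2 difference was -2.1, resting on replicate 2 (157) as the only wt untreated library.

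Tnfaip2, an NF-κB target, had 410, 511 and 727 in untreated wt, 1318, 1442 and 1550 in LPS-treated wt, 650, 768 and 744 in untreated MyD88ko and 889, 775 and 652 in LPS-treated MyD88ko. Its wt groups were apart while its MyD88ko groups overlapped, and the difference was -1.33 ± 0.30 (adjusted p = 0.209). Without wt untreated replicate 3 the difference of Tnfaip2 was -1.55 and was called (limma adjusted p = 0.0295). Sod2, the mitochondrial superoxide dismutase, rose 2.38-fold in wt (adjusted p = 0.000393) and was 1.12-fold higher in MyD88ko (adjusted p = 0.715), a difference of -1.09 ± 0.30 (adjusted p = 0.314). Zc3h12a, an RNase that degrades cytokine mRNAs, rose by 93.0 in wt against 13.7 higher in MyD88ko, yet its log2 difference was only -0.96 ± 0.55 (adjusted p = 0.614). Nfkbiz, a nuclear cofactor of NF-κB, had a difference of -0.61 ± 0.50 (adjusted p = 0.741).

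Among the 17 pathway lists, the chemokines had the largest share of genes whose sign differed between the scales. Of 15 tested, 9 rose and 1 fell in wt and 9 rose in MyD88ko, where 9.58% of all genes rose and 9.65% fell in wt and 2.59% rose in MyD88ko. On the log2 scale the difference was below 0 in 7 of 15 (50.3% of all genes), with a median of 0.12, and none was called. At an unadjusted p under 0.05 there was 1 (6.67%, against 9.14% of all genes). The sign of that median is not firm: it was -0.04 after quantile normalization, -0.26 without wt untreated replicates 1 and 3, and from -0.44 (without MyD88ko untreated replicate 2) to 0.45 (without MyD88ko untreated replicate 1) with 1 library left out. On the level scale the difference was below 0 in 13 of 15 (49.2% of all genes), with a median of -35.0 against 0.333 over all genes, also in 13 without those replicates, and in 11 to 13 with any 1 library left out. The sign differed between scales for 6 of 15 chemokines (40.0%), against 8.17% of all genes.

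Cxcl5, a neutrophil chemokine, had values of 464, 155 and 380 in untreated wt, 6242, 6439 and 4193 in LPS-treated wt, 3, 7 and 12 in untreated MyD88ko, and 192, 354 and 279 in LPS-treated MyD88ko. The MyD88ko libraries with LPS overlapped the untreated wt libraries. It rose 18.3-fold in wt (adjusted p = 1.89e-05) and 35.9-fold in MyD88ko (adjusted p = 2.33e-05), and the log2 difference was 0.97 ± 0.61 (95% interval -0.32 to 2.27; adjusted p = 0.652). In levels the means rose by 5292 and by 268, a difference of -5024 ± 726, and the gap of MyD88ko to wt went from -326 untreated to -5350 with LPS. Ccl2, a monocyte chemokine, had 500, 244 and 616 in untreated wt, 4765, 5022 and 4204 in LPS-treated wt, 118, 43 and 33 in untreated MyD88ko, and 660, 1046 and 636 in LPS-treated MyD88ko. None of its 4 groups overlapped another. It rose 11-fold in wt and 13.5-fold in MyD88ko (adjusted p = 5.42e-05 and 0.000168), with a log2 difference of 0.30 ± 0.58 (95% interval -0.94 to 1.54; adjusted p = 0.904) and a level difference of -3494 ± 298.

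Cxcl1, another neutrophil chemokine, had 125, 54 and 222 in untreated wt, 948, 1209 and 1462 in LPS-treated wt, 14, 2 and 10 in untreated MyD88ko, and 184, 280 and 258 in LPS-treated MyD88ko. It rose 10.3-fold in wt and 30.1-fold in MyD88ko (adjusted p = 0.000934 and 0.000285), a log2 difference of 1.55 ± 0.78 (adjusted p = 0.575) beside a level difference of -841 ± 159. Ccl7, a monocyte chemokine, rose by 1149 in wt and 149 in MyD88ko, and here the log2 difference had the same sign as the level difference (-0.54 ± 0.37, adjusted p = 0.680). Cxcl10, a T-cell chemokine induced by interferon and NF-κB, rose 7.98-fold and 10.2-fold (adjusted p = 0.000415 and 0.000538), with means 105 and 53.7 higher and a log2 difference of 0.36 ± 0.72 (adjusted p = 0.908) whose sign turned in 4 alternatives.

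Cxcl16, a membrane-bound chemokine, was the member with the smallest p for the genotype difference. Its values were 59, 28 and 86 in untreated wt, 216, 224 and 205 in LPS-treated wt, 36, 43 and 32 in untreated MyD88ko, and 45, 58 and 20 in LPS-treated MyD88ko. Only wt LPS stood apart, and the difference was -1.99 ± 0.55 (95% interval -3.14 to -0.84; adjusted p = 0.314) with level changes of 157 and 4.0. Cxcl12, which retains and guides CXCR4-bearing cells, fell in wt (means -1800, adjusted p = 0.00554) and had a mean change of -426 in MyD88ko (adjusted p = 0.278), a log2 difference of 0.73 ± 0.44 (adjusted p = 0.631).

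**Figure D3:**
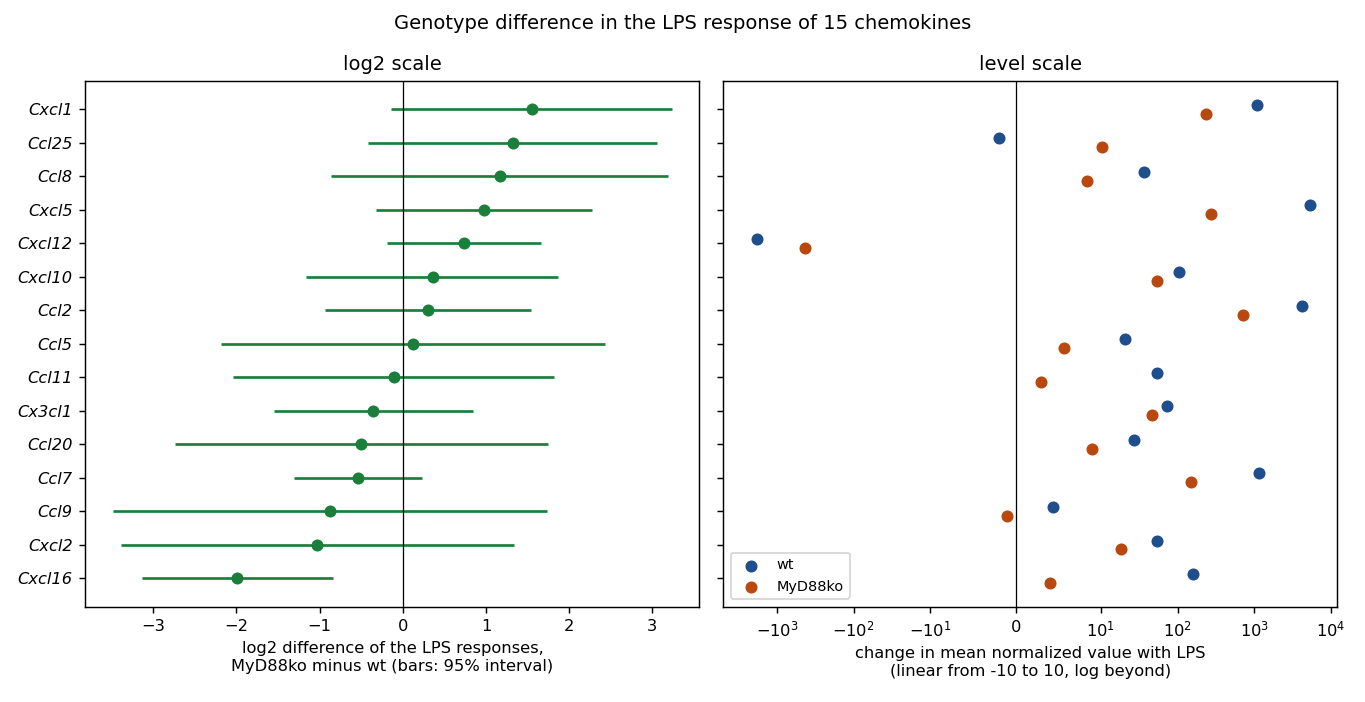
For 15 chemokines the left panel gives the log2 difference of the LPS responses, MyD88ko minus wt, with its 95% interval, and the right panel gives the change in mean normalized value in each genotype on an axis that is linear from -10 to 10 and logarithmic beyond. Intervals on the left cross 0 except for Cxcl16, while on the right the wt point lies to the right of the MyD88ko point for 13 of 15 genes.

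Among cytokines and their receptors, 2 of 21 (9.52%, against 9.14% of all genes) had an unadjusted p under 0.05, and none was called. Their median log2 difference was -0.08, and -0.05 without wt untreated replicates 1 and 3. Il6, a cytokine of the acute response, had 8, 5 and 15 in untreated wt, 50, 54 and 77 in LPS-treated wt, 2, 10 and 3 in untreated MyD88ko, and 8, 4 and 5 in LPS-treated MyD88ko. Only wt LPS was apart from the other groups, and the log2 difference was -2.32 ± 0.84 (95% interval -4.08 to -0.56; adjusted p = 0.399), with means 51.0 higher in wt and 0.667 higher in MyD88ko. Il6ra, its receptor, had a difference of -1.97 ± 0.79 (adjusted p = 0.449) at values under 30. Osmr, the oncostatin M receptor, fell in both genotypes (adjusted p = 0.00242 in wt and 0.000317 in MyD88ko; difference -0.53 ± 0.33, adjusted p = 0.638).

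Acute-phase and complement genes had no called member of 10, and 1 (10%, against 9.14% of all genes) had an unadjusted p under 0.05. Their median log2 difference was -0.06, and 0.32 without wt untreated replicates 1 and 3. Saa3, a serum amyloid A of stromal cells, had 5480, 1529 and 5461 in untreated wt, 9539, 6130 and 6455 in LPS-treated wt, 0, 5 and 17 in untreated MyD88ko, and 23, 48 and 82 in LPS-treated MyD88ko. All MyD88ko libraries lay below all wt libraries, so its log2 difference of 2.26 ± 1.35 (adjusted p = 0.648) stands beside level changes of 3218 and 43.7. The level difference was -3174 ± 1705. Saa3 passed the test for LPS in neither genotype (limma adjusted p = 0.514 in wt and 0.08 in MyD88ko). C1ra, a complement protease, fell in wt (0.437-fold, adjusted p = 0.00134) and was at 0.741-fold in MyD88ko (adjusted p = 0.303), a difference of 0.76 ± 0.33 (adjusted p = 0.499). Lcn2 was not among the joined genes and was not analysed here.

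For the genes of the receptor itself and of its adaptors, the genotype difference was near the background. Of 18 genes of the TLR4 receptor and MyD88 arm, 7 had a log2 difference below 0 (50.3% of all genes). Without wt untreated replicates 1 and 3 it was below 0 in 10. At an unadjusted p under 0.05 there was 1 gene (5.56%, against 9.14% of all genes). That gene was Ly96, which encodes MD-2, with 27, 20 and 19 in untreated wt, 26, 15 and 16 in LPS-treated wt, 10, 8 and 3 in untreated MyD88ko, and 29, 21 and 16 in LPS-treated MyD88ko. Its MyD88ko untreated libraries were below all others, and the difference was 1.83 ± 0.70 (adjusted p = 0.407). Tlr4 had a difference of 0.31 ± 0.53 (adjusted p = 0.893), Cd14 one of 0.42 ± 1.07 at values of 14 or less (adjusted p = 0.932), and Myd88 one of -0.55 ± 0.61 (adjusted p = 0.808). In the TRIF arm, Ticam1, which encodes TRIF, rose 2.45-fold in wt (adjusted p = 0.00837) and was 1.28-fold higher in MyD88ko (adjusted p = 0.580). Its difference was -0.94 ± 0.46 (adjusted p = 0.559). None of the 8 genes of the arm had an unadjusted p under 0.05, against 9.14% of all genes. Their log2 difference was below 0 in 3, and in 6 without wt untreated replicates 1 and 3.

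Interferon-stimulated genes, which the TRIF arm is known to reach through IRF3, had no member that passed the adjusted test for the genotype difference. The number below 0 moved with the library left out, from 16 to 25. Of 30 tested, 8 rose and 1 fell in wt (9.58% and 9.65% of all genes) and 1 rose in MyD88ko (2.59%), the last near the background. The log2 difference was below 0 in 25 of 30 (50.3% of all genes) with a median of -0.29, the level difference was below 0 in 23, and 7 (23.3%, against 9.14% of all genes) had an unadjusted p under 0.05, of which 6 were lower. Without wt untreated replicates 1 and 3 the median was -0.61 with 26 below 0 and 10 (33.3%) at such a p. With 1 library left out, the median ran from -0.74 (without MyD88ko LPS replicate 1, with 12 members at such a p) to -0.21 (without MyD88ko LPS replicate 2). Without wt LPS replicate 2, 16 of the 29 then tested were below 0, near the share of all genes. In that setting 5 (17.2%, against 9.69% of all genes) had such a p. Of 30, 19 were below 0 without MyD88ko LPS replicate 2, 20 without wt untreated replicate 2 and 21 without MyD88ko untreated replicate 1. Ddx58, the RNA sensor RIG-I, had 133, 81 and 144 in untreated wt, 262, 301 and 207 in LPS-treated wt, 143, 173 and 144 in untreated MyD88ko and 174, 139 and 169 in LPS-treated MyD88ko, so that only wt LPS stood apart (-1.06 ± 0.35, adjusted p = 0.370). Bst2, the antiviral tetherin, rose 2.81-fold in wt and was 1.32-fold higher in MyD88ko (adjusted p = 0.000595 and 0.418), a difference of -1.09 ± 0.38 (adjusted p = 0.380). Gbp5, an interferon-induced GTPase, had 2, 0 and 0 in untreated wt, 48, 69 and 52 in LPS-treated wt, 3, 0 and 0 in untreated MyD88ko and 16, 10 and 3 in LPS-treated MyD88ko, with means 55.7 and 8.67 higher. Its log2 difference of -2.78 ± 1.13 (adjusted p = 0.450) depends on the 1 added to values at 0.

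Genes of leukocyte adhesion and antigen presentation had no member that passed the adjusted test for the genotype difference. Of 14, 8 rose in wt and 2 in MyD88ko, against 9.58% and 2.59% of all genes. The log2 difference was below 0 in 10 (50.3% of all genes; median -0.52), and 3 (21.4%, against 9.14%) had an unadjusted p under 0.05, or 5 (35.7%) after quantile normalization. Without wt untreated replicates 1 and 3, 8 of 14 were below 0, close to the share of all genes, with a median of -0.39 and 4 (28.6%) at such a p. Tapbp, which loads peptides onto MHC class I, had 628, 495 and 403 in untreated wt, 1202, 1082 and 1038 in LPS-treated wt, 558, 864 and 934 in untreated MyD88ko and 747, 870 and 771 in LPS-treated MyD88ko. Only wt LPS stood apart, with a difference of -1.09 ± 0.31 (adjusted p = 0.314). H2-K1, an MHC class I chain, had a difference of -0.98 ± 0.37 (adjusted p = 0.399), and Cd44, a hyaluronan receptor, one of -0.85 ± 0.33 (adjusted p = 0.407) after rising 1.99-fold in wt (adjusted p = 0.00499).

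Of 20 immediate-early transcription factors, 15 had a log2 difference below 0 (median -0.34), against 50.3% of all genes. At an unadjusted p under 0.05 there were 2 (10%, against 9.14% of all genes), near the background. Without wt untreated replicates 1 and 3, 16 were below 0 (median -0.49). After a correction for GC content, 12 were below 0 (median -0.25) and 1 had an unadjusted p under 0.05. Cebpd, a C/EBP factor of inflammation, had 164, 76 and 166 in untreated wt, 649, 540 and 658 in LPS-treated wt, 45, 37 and 54 in untreated MyD88ko and 81, 120 and 67 in LPS-treated MyD88ko. Its groups were apart within each genotype, and the MyD88ko LPS libraries overlapped untreated wt; the difference was -1.32 ± 0.42 (adjusted p = 0.366). Cebpb, its relative, rose 3.22-fold in wt and 1.95-fold in MyD88ko (adjusted p = 7.31e-05 and 0.0203), a difference of -0.72 ± 0.34 (adjusted p = 0.540).

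Contractile genes had 5 of 18 members (27.8%, against 9.14% of all genes) at an unadjusted p under 0.05, 4 lower and 1 higher. Of the 18, 14 had a log2 difference below 0 (median -0.33), against 50.3% of all genes. In wt 9 rose and 1 fell and in MyD88ko 2 rose, against 9.58%, 9.65% and 2.59% of all genes. When wt untreated replicates 1 and 3 were left out, 3 members (16.7%) had such a p and 12 were below 0 (median -0.16); with 1 library left out, 3 to 5 members had such a p. Cnn1, the smooth muscle calponin, had 1999, 1832 and 1641 in untreated wt, 2994, 2426 and 2946 in LPS-treated wt, 3285, 3035 and 3988 in untreated MyD88ko and 3268, 3041 and 2616 in LPS-treated MyD88ko. The wt untreated libraries were the lowest of all 12, and the MyD88ko groups overlapped (-0.81 ± 0.27, adjusted p = 0.370). Flna, an actin crosslinker, had the same log2 difference with a larger error (-0.81 ± 0.29, adjusted p = 0.399), and Lmod1, an actin nucleator of smooth muscle, went the other way (0.78 ± 0.31, adjusted p = 0.439) after falling in wt (adjusted p = 0.00469).

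Structural matrix genes had 0 of 38 members at an unadjusted p under 0.05, against 9.14% of all genes. Their log2 difference was below 0 in 31, against 50.3% of all genes, with a median of -0.22. Without wt untreated replicates 1 and 3 it was below 0 in 9 with a median of 0.29, so no direction is given for this list. Of 22 matrix proteases and inhibitors, 17 had a log2 difference below 0 (median -0.30), against 50.3% of all genes. At an unadjusted p under 0.05 there were 0, against 9.14% of all genes. Without wt untreated replicates 1 and 3 these were 13 (median -0.16) and 1, and the median ran from -0.43 (without wt untreated replicate 2) to -0.17 (without wt LPS replicate 2) with 1 library left out. Timp2, a metalloprotease inhibitor, rose 1.57-fold in wt (adjusted p = 0.0146) and was 1.16-fold higher in MyD88ko (adjusted p = 0.524; difference -0.43 ± 0.25, adjusted p = 0.620).

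Stem cell niche signals had 2 of 20 members (10%, against 9.14% of all genes) at an unadjusted p under 0.05. Their median log2 difference was -0.01, and 0.31 without wt untreated replicates 1 and 3. Fgf7, an epithelial growth factor, had 53, 33 and 43 in untreated wt, 168, 131 and 110 in LPS-treated wt, 0, 0 and 1 in untreated MyD88ko and 15, 6 and 10 in LPS-treated MyD88ko. All MyD88ko libraries were below all wt libraries, and Fgf7 passed the test for LPS in both genotypes (adjusted p = 0.0227 and 0.000745). Its log2 difference was 1.44 ± 0.69 (adjusted p = 0.545) and became -0.07 with a pseudocount of 5, while its means rose by 93.3 and 10. Frzb, a secreted Wnt antagonist, had a difference of 0.78 ± 0.37 (adjusted p = 0.546), and Grem1, a BMP antagonist of the niche, one of -0.25 ± 0.30 (adjusted p = 0.829) at levels of 1988 to 4645.

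Prostaglandin genes had 1 of 9 members (11.1%, against 9.14% of all genes) at an unadjusted p under 0.05. That member was Ptgs1, the constitutive cyclooxygenase (-0.83 ± 0.39, adjusted p = 0.535). Ptgs2, the inducible one, had 596, 194 and 417 in untreated wt, 900, 262 and 771 in LPS-treated wt, 271, 141 and 161 in untreated MyD88ko and 387, 144 and 164 in LPS-treated MyD88ko, with groups overlapping in each genotype (-0.45 ± 0.77, adjusted p = 0.893). Cell-cycle genes had 1 of 24 (4.17%), Mcm3 of the replicative helicase (1.47 ± 0.46, adjusted p = 0.351), and cholesterol synthesis genes 1 of 22 (4.55%), Stard4, a sterol carrier (1.46 ± 0.69, adjusted p = 0.540). Without wt untreated replicates 1 and 3 the counts were 1 of 9, 2 of 23 and 0 of 22, and the medians of the last pair of lists went from 0.12 to -0.32 and from 0.01 to -0.46, so no direction is given for them. Of 39 cytosolic ribosomal protein genes, 24 fell in wt and 24 in MyD88ko, against 9.65% and 3.41% of all genes; these need not be the same genes. The median difference was 0.16, and 0.21 without wt untreated replicates 1 and 3. Rps19, a protein of the small subunit, fell in both (0.191-fold in wt and 0.357-fold in MyD88ko, adjusted p = 8.75e-07 and 0.000317), a difference of 0.91 ± 0.30 (adjusted p = 0.370).

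**Figure D4:**
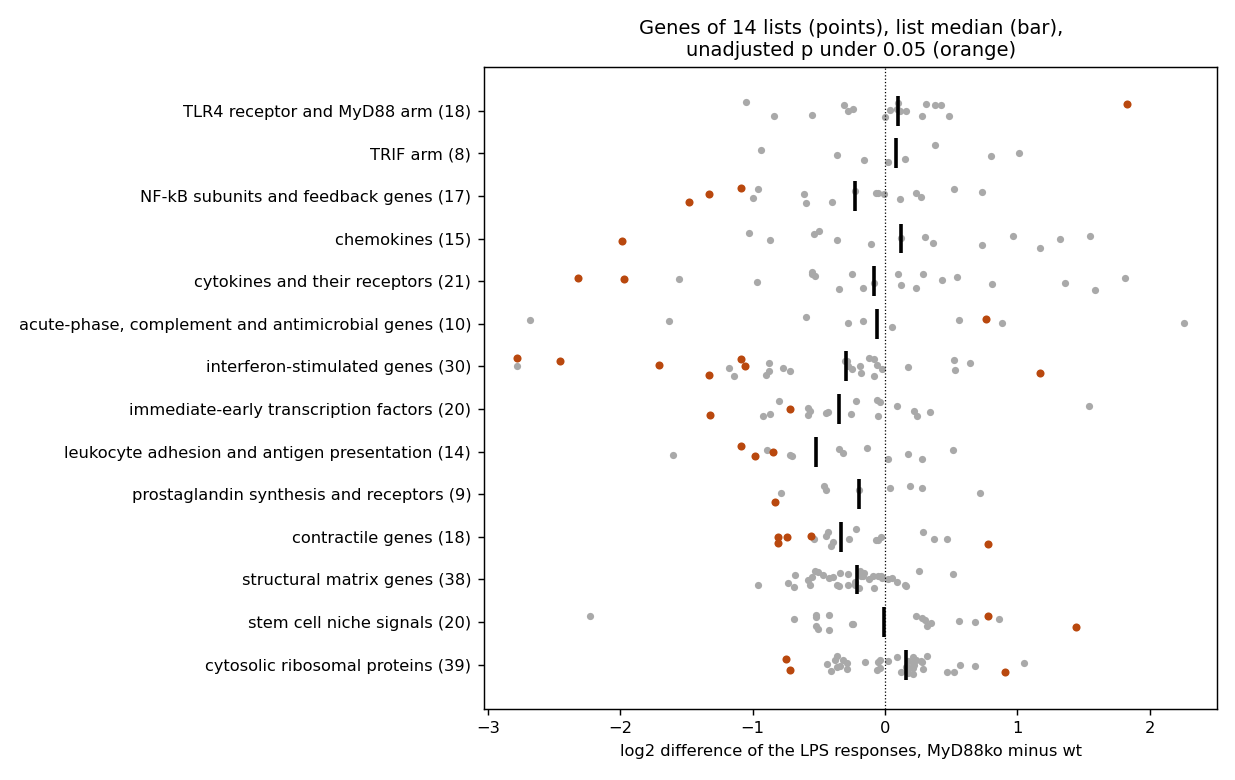
Each point is a tested gene of 1 of 14 lists (number of tested genes in brackets) at its log2 difference of the LPS responses, MyD88ko minus wt; black bars are list medians and orange points have an unadjusted p under 0.05. Orange points lie mostly to the left for NF-κB, interferon-stimulated, adhesion and contractile genes. No gene of these lists passed the adjusted test with all 12 libraries.

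On the level scale, the standard error exceeded the difference for 5 of the 16 genes with the largest differences, 8 in each direction. Actb, cytoskeletal actin, had 17520, 15824 and 24539 in untreated wt, 37396, 27079 and 36856 in LPS-treated wt, 34955, 35484 and 32920 in untreated MyD88ko and 26034, 29396 and 26600 in LPS-treated MyD88ko. It rose with LPS in wt (1.76-fold, adjusted p = 0.00831) and was 0.793-fold in MyD88ko, where the groups did not overlap but the test was not passed (adjusted p = 0.368), giving a level difference of -21592 ± 4477 and a log2 difference of -1.15 ± 0.29 (adjusted p = 0.275). Acta2, smooth muscle actin, had a level difference of -8534 ± 3052 (log2 -0.56 ± 0.26, adjusted p = 0.540). Calu, a calcium-binding protein of the secretory pathway, had one of -7491 ± 2150 (log2 -0.32 ± 0.27, adjusted p = 0.746). Calu fell in both genotypes (adjusted p = 0.00111 and 0.000383). In the other direction Myadm, a membrane protein, had 6698 ± 1710 (log2 1.39 ± 0.34, adjusted p = 0.221) and Tuba1a, an alpha-tubulin, 16391 ± 8145 (log2 0.76 ± 0.34, adjusted p = 0.519). Ctgf, a matricellular growth factor, rose in both genotypes (adjusted p = 0.0189 and 0.0158), with a level difference of 15054 ± 9200 and a log2 difference of only 0.16 ± 0.33 (adjusted p = 0.908). For S100a6 (-26244 ± 26631), Col1a1 (12289 ± 13617), Tmsb4x (6729 ± 12165), App (3624 ± 3805) and Tpm1 (3616 ± 3890) the standard error exceeded the difference.

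Which genes were called depended on the wt untreated libraries. Without wt untreated replicate 2, 35 genes were called, 33 higher and 2 lower. In 30 of the 33 the wt untreated replicates 1 and 3 were above every other library. Leaving out replicate 2 favours genes of that kind, so the count follows in part from the selection. Gata3, a transcription factor of epithelial and lymphoid cells named after its values were seen, had 957, 23 and 258 in untreated wt, 3, 2 and 3 in LPS-treated wt, 1, 0 and 1 in untreated MyD88ko and 19, 4 and 2 in LPS-treated MyD88ko. With all libraries its difference was 7.72 ± 1.4 (adjusted p = 0.0847). Without wt untreated replicate 3, 17 genes were called, 16 of them lower. In 15 of the 16, replicate 3 was above both other wt untreated libraries, which likewise follows in part from the selection. Lrrc17, a secreted leucine-rich repeat protein, had 1171, 1710 and 9343 in untreated wt, 45242, 28919 and 31326 in LPS-treated wt, 7760, 9946 and 10977 in untreated MyD88ko and 16352, 39208 and 17275 in LPS-treated MyD88ko. Its difference was -2.46 ± 0.91 (adjusted p = 0.435), and the wt untreated replicate 3 was close to the MyD88ko untreated libraries. Cd9, Stc1, Stc2, Nqo1 and Irx5, named after their values were seen, were among the 33, and Gnb2, Gna11 and Trp53i13 among the 16. The 1128 genes with an unadjusted p under 0.05 also differed in base composition: median GC content was 49.7% for those lower in MyD88ko and 44.6% for those higher, against 46.1% over all genes. After a correction for GC content, limma called 0 genes, with 1087 at an unadjusted p under 0.05. Selenom then had a log2 difference of -1.63 and Ackr4 one of 2.21, each with an adjusted p of 0.0544. The counts at an unadjusted p under 0.05 were then 7 of 30 interferon-stimulated (median -0.37), 4 of 14 adhesion and antigen presentation, 3 of 17 NF-κB and 4 of 18 contractile genes. Over all genes the share was then 8.81%.

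**Figure D5:**
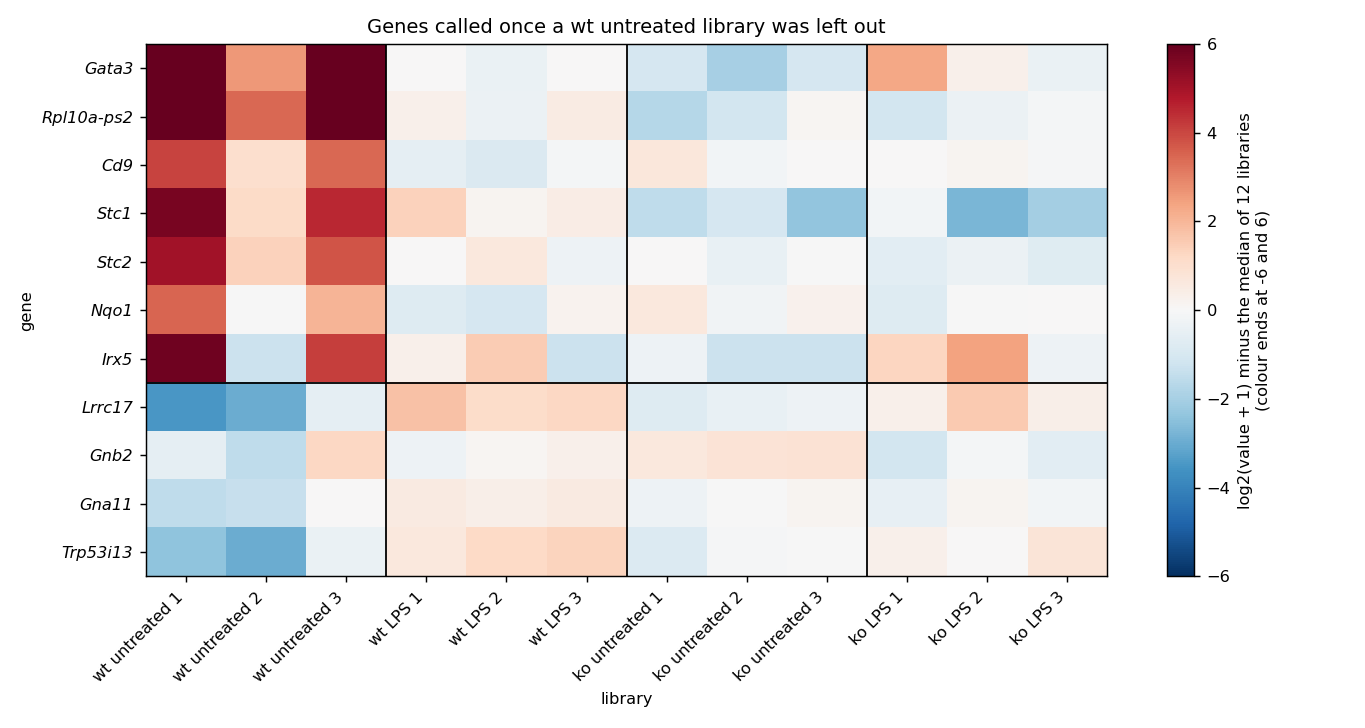
Colour gives each gene's log2(value + 1) minus its median over 12 libraries, ending at -6 and 6. The upper 7 genes were called without wt untreated replicate 2 and are highest in wt untreated replicates 1 and 3; the lower 4 were called without wt untreated replicate 3, which is higher there than wt untreated replicates 1 and 2.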

How the data were processed

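For the authors' own processing, the tools listed in the submitters' processing notes are Bowtie2, TopHat2 and DESeq, on build mm10, with neither versions nor roles. The deposited expression values are scores: read counts per gene that the authors normalized over the libraries and rounded to whole numbers, per the file headers. GC content was taken as the fraction per gene that the authors deposited. Totals of the normalized values were 3597055 to 4319186 per library; depth was estimated from the spacing of low rounded values, and no molecular identifiers were described. Of 166719 values given in 2 tables, 0 differed. A further 168 genes with a mean of at least 10 lacked values in part of the libraries and were not tested.

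The test was run in R 4.3.3 with limma 3.58.1 (trend and robust options) on log2(value + 1), fitting 12 libraries together with 4 group coefficients and 8 residual degrees of freedom. A gene was called at a two-sided Benjamini-Hochberg adjusted p under 0.05 over all genes tested, in each of 3 contrasts. The procedure was tested on simulated data. Level differences are differences of group means with an SE from the 4 group variances and no test. Gene lists are described by counts and medians, without a list test.

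Named genes were the called genes and the 8 with the largest level difference in each direction. Added to these were up to 4 members of each list with the smallest p, 18 fixed genes, and genes chosen after their values were seen. Predicted names and duplicated symbols were left out of the first pair of groups. The genes and lists were chosen with earlier results of these data known. Alternatives were 22 planned settings (scaling, variance model, filter, pseudocount, replicate block, libraries left out) and 1 chosen after seeing the data, a GC correction (loess, span 0.5).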

Additional observations from a re-analysis of the deposited data

Results flagged for a closer look

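Selenom and Ackr4 are listed because a test of the difference itself separated the LPS responses of the genotypes. The log2 change with LPS of Selenom in MyD88ko minus that in wt was -1.76, and that of Ackr4 was 2.27, each with a limma adjusted p of 0.0471. Selenom was 4.76-fold higher with LPS in wt and 1.41-fold in MyD88ko, and Ackr4 was at 0.155-fold and 0.75-fold. In both genes all 3 wt LPS libraries lay apart from all 3 wt untreated libraries. In MyD88ko the LPS and untreated libraries also lay apart for Selenom, and overlapped for Ackr4.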

How the results depend on the processing

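The number of genes called for the genotype difference was 2, and it was 0 in 11 of 23 alternatives (limma; 873 to 1300 genes at an unadjusted p under 0.05 in these). It was 0 in limma without trend, with a mean of at least 50, with a pseudocount of 0.5 and after GC correction. It was 4 after quantile normalization and 14 without wt untreated replicates 1 and 3 together (1 higher, 13 lower). Leaving out a library gave 0 to 35 calls, with 35 without wt untreated replicate 2 and 17 without wt untreated replicate 3; 10 genes were lower both in the latter and without replicates 1 and 3 together. The cause was not tested. For the LPS response in wt (2373 genes), leaving out a library gave 1566 to 2720 calls, with 1566 without wt LPS replicate 1, and leaving out wt untreated replicates 1 and 3 together gave 970, with fewer samples. For MyD88ko (741 genes), limma without trend gave 443, and leaving out a library gave 337 to 791, with 435, 337 and 382 without MyD88ko untreated replicates 1, 2 and 3. A TMM-like rescaling and voom gave 2 calls each for the genotype difference. Without wt untreated replicates 1 and 3 together, replicate 2 is the only wt untreated library, so calls in that setting lack replication in that group.

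With the replicate number within genotype as a block, 4 genes were called for the genotype difference (3 higher, 1 lower). Same-numbered untreated and LPS libraries had correlations of their deviations of 0.055, 0.169 and 0.057 in wt and 0.126, 0.039 and -0.051 in MyD88ko, so the numbers were not taken to pair the samples. In wt each library correlated best with its own number. In MyD88ko this was so for untreated replicate 1 and for LPS replicates 1 and 2.

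Of 2613 values of 114 named genes under these alternatives, 2533 kept their direction and side of the threshold, 26 lost the call, 30 gained one and 24 turned sign. Leaving out 1 library moved the log2 difference between -0.38 and 0.34 for Col1a1, -0.07 and 0.29 for Ctgf, -0.09 and 0.63 for App, -0.02 and 0.86 for Chuk, and -0.02 and 0.59 for Tpm1. The same range was -1.0 to 0.01 for Ptgs2, -0.92 to 0.11 for Myd88, -0.10 to 0.81 for Tlr4, -0.42 to 1.08 for Cd14, -0.02 to 0.94 for Cxcl10 and -0.06 to 0.84 for Ccl2. Col1a1 also turned to -0.14 after quantile normalization. With a pseudocount of 5, Fgf7 and Cxcl10 turned to -0.07. Without wt untreated replicates 1 and 3 together, Fbn1 turned to 0.01, Aurka to -0.20, Cxcl10 to -0.01 and Ccl2 to -0.49. The cause was not tested. Depth limits genes with low values most.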
